A study of Mus musculus with 36 samples.

Results

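The 49 genes described here drive or restrain cell division, and they were followed in 36 RNA-seq libraries of mouse bone cells. They were chosen by symbol from the cell cycle and DNA replication pathway, out of 30284 genes in the deposited tables, and were divided by role into 17 S phase genes, 16 mitotic genes, 8 cyclins and kinases of the G1 phase, 5 transcription factors and 3 inhibitors. All 49 were measured, and all passed the filter on low counts in every comparison. The libraries fall into 6 groups of 6, made by 2 genotypes, wild-type control (WT) and Mir324-null (null, mice lacking the gene of the microRNA miR-324), and 3 cultures. Every mouse was 20 weeks old. Bone marrow macrophages (BMM) came from flushed marrow grown with M-CSF, a macrophage growth factor, at 100 ng/mL for 3 days and then at 30 ng/mL for 5 days. Cultures labelled osteoclasts (OC), the bone-resorbing cells, had the same preculture and then 30 ng/mL M-CSF plus 50 ng/mL RANK-L, the cytokine that induces osteoclasts, for 5 days. Osteoblasts (OB), the bone-forming cells, grew out of collagenase-treated bone chips for about 6 weeks and then spent 18 days in medium with 2 mM β-glycerophosphate and 50 µg/mL ascorbic acid. The null allele, the sex of the mice, any batch and whether the 6 libraries of a group come from 6 animals are not given in the sources used here, so p-values measure the spread between these libraries, part of which may be technical.

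Progress through the cell cycle is ordered. In G1, growth factor signals raise D-type cyclins, which with CDK4 and CDK6 phosphorylate the retinoblastoma protein and free E2F transcription factors. E2F then turns on cyclin E and the S phase genes: origin licensing factors, the MCM helicase and the enzymes that make nucleotides. Later, B-MYB and FOXM1, bound through the MuvB complex, turn on the mitotic cyclins, kinases and spindle checkpoint genes. CDK inhibitors such as p21 and p27 hold the kinases back. M-CSF is a mitogen for macrophages, and their precursors divide before RANK-L makes them leave the cycle and fuse into osteoclasts.

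The division of roles can be read in part in the promoters, which are shown because the S phase and mitotic classes are treated apart below. RefSeq sequence of the GRCm38.p6 build, from 250 bases before to 50 after the start of the gene, was at hand for 39 of the 49 members and for 27025 genes in all. Capitals mark 3 kinds of motif, searched on both strands: E2F letters (TTTCCCGC, TTTGGCGC, TTTCGCGC or TTTGCCGC), the cell cycle homology region or CHR letters (TTTGAA or TTTAAA, the element through which MuvB complexes bind) and CCAAT, the NF-Y letters. Overlapping matches were each counted. These are stretches of 100 bases that end before the start of the gene, written 5′ to 3′ on the strand of the gene. The first 4 belong to S phase genes with an E2F match, Cdk1 holds both kinds, and the last 4 belong to mitotic genes with a CHR match.
Mcm5, chr8:75109292-75109391, plus strand: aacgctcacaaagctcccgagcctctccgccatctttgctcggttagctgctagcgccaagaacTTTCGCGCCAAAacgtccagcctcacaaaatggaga
Mcm6, chr1:128359721-128359820, minus strand: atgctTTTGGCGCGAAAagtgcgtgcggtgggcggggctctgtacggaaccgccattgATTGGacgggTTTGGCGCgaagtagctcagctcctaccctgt
Mcm7, chr5:138172017-138172116, minus strand: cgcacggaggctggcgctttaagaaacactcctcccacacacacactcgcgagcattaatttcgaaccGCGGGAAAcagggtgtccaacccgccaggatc
Cdc6, chr11:98907945-98908044, plus strand: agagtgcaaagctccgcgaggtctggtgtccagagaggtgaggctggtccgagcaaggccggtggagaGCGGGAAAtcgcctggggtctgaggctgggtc
Cdk1, chr10:69352964-69353063, minus strand: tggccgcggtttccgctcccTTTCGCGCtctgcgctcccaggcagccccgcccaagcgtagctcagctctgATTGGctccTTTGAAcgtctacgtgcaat
Ccnb1, chr13:100786497-100786596, minus strand: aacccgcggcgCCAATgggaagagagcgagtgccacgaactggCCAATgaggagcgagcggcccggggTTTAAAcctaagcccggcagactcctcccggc
Plk1, chr7:122159335-122159434, plus strand: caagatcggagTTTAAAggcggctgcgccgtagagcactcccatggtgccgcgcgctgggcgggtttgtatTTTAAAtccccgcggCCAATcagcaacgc
Cdc20, chr4:118437344-118437443, minus strand: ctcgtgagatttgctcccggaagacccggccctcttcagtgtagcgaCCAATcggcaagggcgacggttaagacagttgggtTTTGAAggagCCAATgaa
Mki67, chr7:135716446-135716545, minus strand: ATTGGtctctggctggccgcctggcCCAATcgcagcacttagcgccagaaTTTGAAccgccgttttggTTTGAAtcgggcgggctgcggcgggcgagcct

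A gene was counted where any of its listed promoters held a match. E2F letters occurred in 7 of 14 S phase genes (50%), in 1 of 13 mitotic genes (7.69%, Cdk1) and in 2.6% of all genes. Among the 7, Uhrf1 had its match only in its second listed promoter, and Mcm3 and Cdt1 only after the start of the gene. CHR letters showed the opposite division, with 12 of 13 mitotic genes (92.3%), 5 of 14 S phase genes (35.7%) and 30.6% of all genes. At least 2 CCAAT matches in a promoter were found for 69.2% of mitotic and 57.1% of S phase genes, against 13.3% of all genes. A match is a run of letters and not a shown binding site, and the 10 members without a sequence in the table include Ccnd1, Ccnd2, Foxm1 and Mcm4.

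The libraries held 14118972 to 26347581 estimated counts. The mean correlation of a library with the rest of its group was 0.977 to 0.996, but 1 group went against its label. The summed level of 8 osteoclast markers (Ctsk, Acp5, Calcr, Ocstamp, Dcstamp, Atp6v0d2, Mmp9 and Oscar) was 29000 to 31300 CPM (counts scaled to library size) in WT OC and 337 to 704 in the null cultures labelled OC, all 8 being lower there and Calcr having at most 3 counts in every library. Those null cultures had 47300 to 57100 CPM of 8 macrophage markers, against 11600 to 14000 in WT OC and 49800 to 58100 in null BMM. They are therefore called null RANK-L cultures below. The OB libraries carried 8 osteoblast markers at a sum of 55500 to 79500 CPM in WT and 97000 to 117000 in null, and also macrophage markers, at 12200 to 15200 CPM in WT and 6630 to 9620 in null, and osteoclast markers, at 3900 to 5010 and 4710 to 7170 CPM. The part of these other cells in the values below was not tested. In bulk RNA, fewer cells in cycle and less message in each cell cannot be told apart.

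Across the 6 groups, the S phase and mitotic classes were high in the marrow-derived cultures and low in osteoblasts. The level of a class in a library is the median over its members of log2 CPM, each taken relative to its own mean in WT BMM. The S phase class ran from -0.34 to 0.44 in WT BMM (median -0.04), from 0.24 to 0.42 in null BMM (median 0.29), from 0.50 to 0.60 in WT OC (median 0.56) and from 0.41 to 0.67 in null RANK-L cultures (median 0.60). It lay at -1.23 to -0.87 in WT OB and -1.29 to -0.70 in null OB. Every OB library was thus below every BMM and OC library, while WT OC and null RANK-L cultures overlapped. WT BMM was the most variable of the marrow-derived groups, and its range took in that of null BMM. The mitotic class had medians of -0.03 in WT BMM, 0.21 in null BMM, 0.56 in WT OC, 0.44 in null RANK-L cultures, -0.91 in WT OB and -0.84 in null OB, so that here the median of WT OC was above that of null RANK-L cultures, with overlapping ranges. The inhibitor class went the other way in WT osteoblasts, at 0.48 to 0.81 in WT OB against -0.28 to 0.20 in WT BMM. In null cells the ranges overlapped, at 0.10 to 0.76 in null OB (median 0.30) and 0.25 to 0.53 in null BMM (median 0.43).

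**Figure D1:**
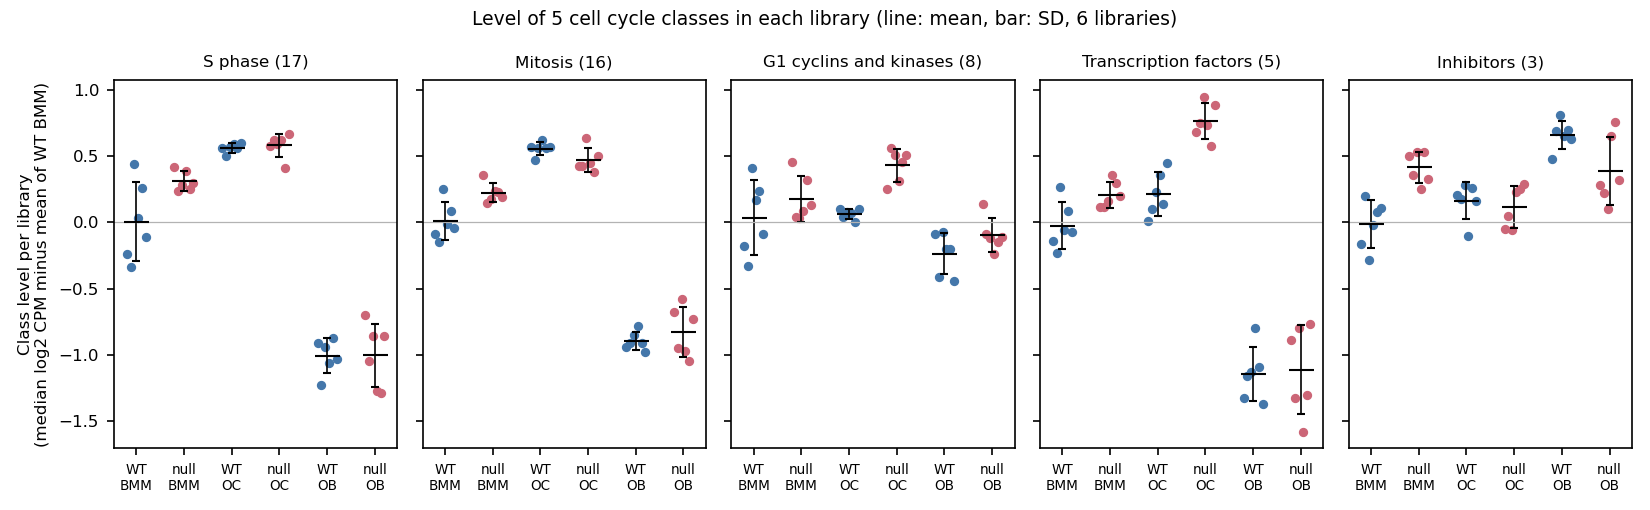
Level of each class (median over its members of log2 CPM minus the member's WT BMM mean, vertical axis) in each library, by group (horizontal axis), with the mean (line) and SD (bar) of 6 libraries. S phase and mitotic genes lie at or below -0.58 in every OB library, and the transcription factor class is highest in null RANK-L cultures, at 0.58 to 0.95.

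Most members moved together. Over the 36 libraries, the correlation of a member's log2 CPM with the mean of the S phase and mitotic members was positive for most, and lay at 0.49 for Cdc45, 0.42 for E2f1, -0.10 for Ccnd3, -0.23 for Cdkn1a, -0.56 for Cdkn2c, -0.85 for Ccnd2, -0.87 for Cdk4 and -0.90 for Cdkn1b. Much of this is the difference between osteoblasts and the marrow-derived cultures: with each group's mean taken out, the correlation was 0.61 for Ccnd2, 0.21 for Ccnd3, -0.07 for Cdk4, -0.45 for E2f1, -0.37 for Cdkn1a, -0.30 for Cdkn2c, -0.56 for Cdkn1b and 0.35 for Cdc45. Ccnd2, Ccnd3 and E2f1 thus had opposite signs across and within groups. These values are a description, since libraries share groups and the depth and scaling of a library act on all of its genes.

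The first comparison asks what RANK-L culture does to the cycle genes in WT cells. RANK-L cultures of WT cells had more S phase and mitotic message than BMM, and less of the D-type cyclins and of p21. Of the 49 members, 38 changed (Benjamini-Hochberg adjusted p under 0.05 over all genes tested, edgeR quasi-likelihood test, as throughout), 32 upward and 6 downward. This is 77.6% of the members, and of all genes tested 60.5% changed, 30.4% upward and 30.1% downward. The members' median log2 fold change was 0.48, against -0.00 over all genes. Comparisons that share a group of libraries, such as WT BMM, are not independent of each other. Where no member of a class is said to have changed in a direction in the marrow-derived cultures, none did so in edgeR at an unadjusted p under 0.05 or in DESeq2, unless an exception is given.

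Among S phase genes 13 of 17 rose and none fell in WT RANK-L culture. Mcm10, which helps to start the helicase, went from 9.93, 12.3 and 19.4 CPM (lowest, median and highest library) in WT BMM to 21.9, 25.3 and 27.3 in WT OC. The groups did not overlap, and the gene rose by 0.90 ± 0.13 on the log2 scale (± SE, adjusted p = 1.42e-06). Uhrf1, which keeps DNA methylation through replication, rose by 0.77 ± 0.13 (adjusted p = 1.22e-05). Mcm5, a helicase subunit, rose by 0.55 ± 0.12 (adjusted p = 1.89e-04). Pcna, the sliding clamp of DNA polymerase, did not pass the test (-0.14 ± 0.09, adjusted p = 0.16). Mcm3, Gins1 and Gins2 did not pass either.

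All 16 mitotic genes rose in WT RANK-L culture. Bub1, a kinase of the spindle checkpoint, had a median of 20.7 and a highest level of 28.6 CPM in WT BMM, and 44.8, 45.7 and 48.5 CPM in WT OC. Its groups did not overlap, with a log2 fold change of 1.10 ± 0.13 (adjusted p = 4.45e-08). Its partner Bub1b rose by 0.85 ± 0.09 (adjusted p = 2.17e-09). Top2a, the topoisomerase that untangles chromosomes, rose by 0.61 ± 0.09, and Mki67, which coats mitotic chromosomes, by 0.43 ± 0.09 (adjusted p = 8.63e-07 and 1.77e-04). Cdk1, the mitotic kinase itself, had the smallest rise of the class (0.23 ± 0.09, adjusted p = 0.038). That call was lost without WT BMM replicate 1, 2, 4 or 6 or WT OC replicate 2, 5 or 6, and with the length and GC offset.

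The G1 genes went apart from these. All 3 D-type cyclins fell, Ccnd2 by far the most. Ccnd2 (cyclin D2, ENSMUSG00000000184, chromosome 6, GRCm38 127125162 to 127152193) was at 15.7, 22.4 and 29.7 CPM in WT BMM and at 0.890, 1.23 and 2.25 CPM in WT OC, which is 18 to 44 counts a library. Its log2 fold change was -4.04 ± 0.21 (adjusted p = 8.81e-16), or 16.4-fold. Ccnd1 fell by 0.98 ± 0.14 and Ccnd3 by 0.60 ± 0.06 on the log2 scale (adjusted p = 6.36e-07 and 1.37e-09). Ccne2, a cyclin E, rose by 0.84 ± 0.14 (adjusted p = 1.27e-05), while Ccne1 did not pass (0.05 ± 0.15, adjusted p = 0.771), and neither did Cdk2, Cdk4 and Cdk6.

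The transcription factors split. Mybl2 (B-MYB) rose by 1.41 ± 0.24 and E2f8, a repressor E2F, by 0.51 ± 0.15 (adjusted p = 1.04e-05 and 0.00367). The activators E2f1 and E2f2 fell, by 0.49 ± 0.08 and 0.42 ± 0.11 (adjusted p = 9.25e-06 and 0.00108). Foxm1 did not pass the test. Of the inhibitors, Cdkn1a (p21, ENSMUSG00000023067, chromosome 17, GRCm38 29090976 to 29100727) fell from 274, 309 and 330 CPM to 115, 118 and 124 CPM with no overlap, a log2 fold change of -1.36 ± 0.07 (adjusted p = 1.74e-15). Cdkn1b (p27) and Cdkn2c (p18) did not pass, at 0.22 ± 0.12 and 0.26 ± 0.18.

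In null cells 11 of 17 S phase and 8 of 16 mitotic genes rose in the same culture, and no member fell. Of the 49, 24 rose and 0 fell in edgeR, against 12.9% of all genes changed, 6.77% upward and 6.08% downward. The members' median was 0.31 on the log2 scale. DESeq2 also called 0 lower, and 1 was lower at an unadjusted p under 0.05, Cdkn1b at -0.31 ± 0.12 (adjusted p = 0.0887). The count was sensitive to the libraries and the method: it was 14 with limma-voom quality weights, and without one library at a time it ran from 13 (null BMM replicate 3 left out) to 30, with 14 without null BMM replicate 2 and 15 without null OC replicate 2 or 3.

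Among the S phase genes Cdt1, which loads the helicase at origins, went from 20.5, 23.1 and 27.9 CPM to 30.5, 38.4 and 51.7 CPM with no overlap, a log2 fold change of 0.76 ± 0.13 (adjusted p = 0.00136). Mcm10 rose by 0.49 ± 0.13 and Mcm5 by 0.37 ± 0.12 (adjusted p = 0.0179 and 0.0398), while Pcna was at 0.10 ± 0.09 (adjusted p = 0.453). The Mcm5 call was lost without null BMM replicate 2, 3, 4 or 5 or null OC replicate 2, 3 or 6. Of the 16 mitotic genes 8 rose, led by Bub1 at 0.57 ± 0.13 and Plk1, the polo kinase, at 0.52 ± 0.10 (adjusted p = 0.00867 and 0.00216). Mki67, Top2a and Cdk1 did not pass, at 0.22 ± 0.09, 0.16 ± 0.09 and 0.24 ± 0.09 (adjusted p = 0.0979, 0.22 and 0.0882). Among G1 genes Ccne2 (0.53 ± 0.14) and Ccnd3 (0.24 ± 0.06) rose (adjusted p = 0.0175 and 0.0115); Ccne2 was lost without null BMM replicate 3 and Ccnd3 with the length and GC offset. Ccnd1, Ccnd2 and Ccne1 stood at 0.39 ± 0.13, 0.36 ± 0.16 and 0.41 ± 0.14 (adjusted p = 0.0551, 0.139 and 0.0529). E2f8, E2f2 and Foxm1 rose, E2f8 by 0.67 ± 0.14 and E2f2 by 0.56 ± 0.10 (adjusted p = 0.00519 and 0.0022). Cdkn1a was at 0.10 ± 0.07 and Cdkn2c at 0.10 ± 0.18 (adjusted p = 0.337 and 0.763).

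**Figure D2:**
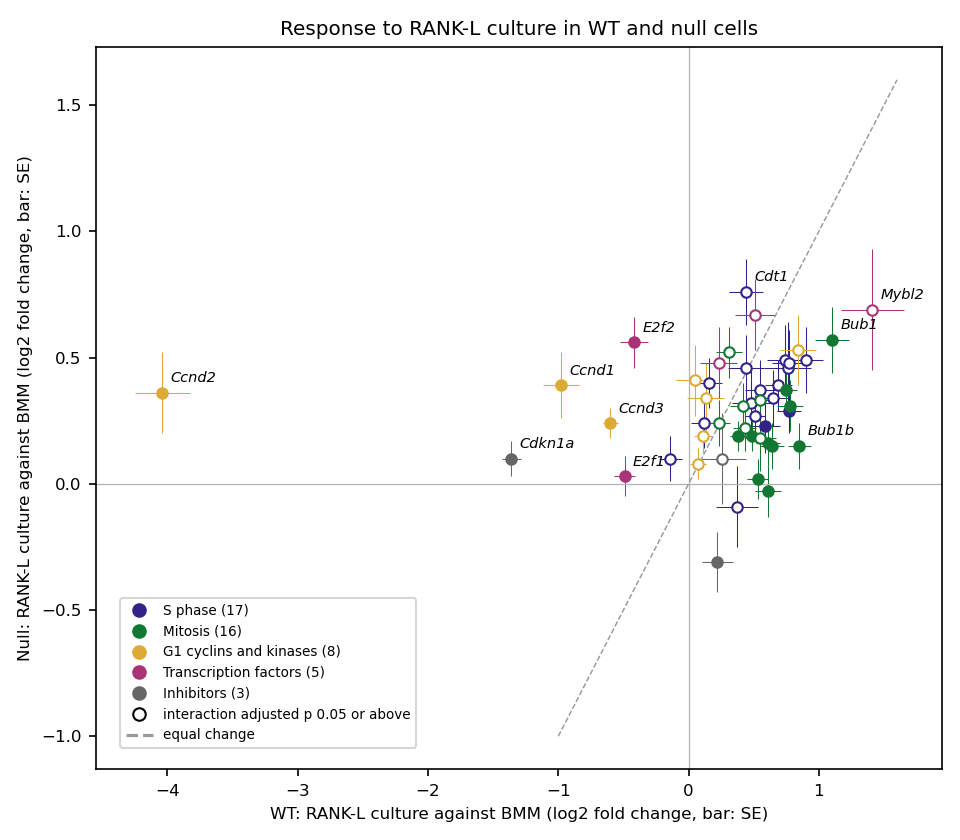
Log2 fold change of each member between RANK-L culture and BMM in WT cells (horizontal axis) and in null cells (vertical axis), with SE bars; filled points passed the test of the difference and the dashed line marks equal change. Most mitotic genes lie below the line, and Ccnd2, Ccnd1, Ccnd3, Cdkn1a, E2f1 and E2f2 fell in WT and lie at or above 0 in null.

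The difference between the genotypes in this response was tested directly, as an interaction of genotype and RANK-L culture. It passed for 19 members, 6 with a higher and 13 with a lower response in null cells, against 51.4% of all genes, 25.3% higher and 26.1% lower. The share of members, 38.8%, is below that background. The 13 were 10 of 16 mitotic genes, 2 of 17 S phase genes (Mcm7 and Tyms) and Cdkn1b (-0.54 ± 0.17, adjusted p = 0.012). Bub1b differed by -0.70 ± 0.12, Cenpf, a kinetochore protein, by -0.64 ± 0.14 and Top2a by -0.45 ± 0.12 (adjusted p = 2.85e-05, 4.80e-04 and 0.00357). Mki67, Cdk1, Pcna and Mcm5 did not pass, at -0.21 ± 0.13, 0.01 ± 0.13, 0.24 ± 0.12 and -0.19 ± 0.17, nor did E2f8, Ccne1 and Cdkn2c, at 0.16 ± 0.20, 0.36 ± 0.20 and -0.16 ± 0.25. The 6 higher members were those that fell in WT: Ccnd2 (4.40 ± 0.26, adjusted p = 8.28e-14), Cdkn1a (1.46 ± 0.10, adjusted p = 1.20e-12), Ccnd1 (1.37 ± 0.19, adjusted p = 1.18e-06), E2f2 (0.98 ± 0.15, adjusted p = 3.04e-06), Ccnd3 (0.84 ± 0.09, adjusted p = 2.86e-09) and E2f1 (0.53 ± 0.12, adjusted p = 4.34e-04).

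Compared directly, null cultures given RANK-L had more G1 cyclin, activator E2F and p21 message than WT OC. Of the 49 members 39 changed between them, 24 higher and 15 lower in null (79.6%), against 65.5% of all genes, 32.4% higher and 33.1% lower. The members' median log2 fold change was 0.03 and that of all genes -0.03. By class, 7 of 8 G1 genes, 4 of 5 transcription factors and 8 of 17 S phase genes were higher and none, none and 5 lower. Of 16 mitotic genes 4 were higher and 9 lower. On the deposited TPM (counts scaled by transcript length and library), where all genes shift by -0.20, G1 genes were 5 higher and 1 lower, transcription factors 2 higher and 1 lower, S phase genes 6 higher and 7 lower and mitotic genes 1 higher and 12 lower. With the length and GC offset, transcription factors were 3 higher and 1 lower.

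Ccnd2 stood at 0.890, 1.23 and 2.25 CPM in WT OC and at 22.4, 24.4 and 37.4 CPM in null RANK-L cultures, close to the 15.7 to 29.7 CPM of WT BMM. The log2 fold change was 4.32 ± 0.20 (adjusted p = 7.14e-12), or 20.0-fold. Ccnd3 was at 73.8, 76.0 and 81.2 CPM in WT OC and 222, 239 and 257 CPM in null, a change of 1.63 ± 0.05 (adjusted p = 5.24e-14). Ccne1 was at 16.9, 18.4 and 19.1 CPM and 42.3, 45.8 and 59.4 CPM, a change of 1.39 ± 0.09 (adjusted p = 3.55e-10). Ccnd1 was higher by 1.05 ± 0.06 (adjusted p = 3.07e-10). None of these 4 cyclins overlapped between the genotypes. Ccne2, Cdk6 and Cdk2 rose by 0.56, 0.30 and 0.20 on the log2 scale, and Cdk4 did not pass (-0.04 ± 0.06).

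Cdkn1a, the inhibitor, was higher in the same libraries. It was at 115, 118 and 124 CPM in WT OC and at 499, 601 and 643 CPM in null RANK-L cultures, a log2 fold change of 2.29 ± 0.06 (adjusted p = 1.00e-14), or 4.90-fold. Cdkn2c was lower by 0.57 ± 0.19 (adjusted p = 0.0167) and Cdkn1b did not pass (-0.14 ± 0.10, adjusted p = 0.203). Cyclins of G1 and a main inhibitor of their kinases were thus high in the same cultures. Among transcription factors E2f2 went from 19.5, 21.1 and 24.6 CPM to 43.4, 50.6 and 56.2 CPM (1.22 ± 0.09, adjusted p = 1.76e-09). E2f1 was higher by 0.57 ± 0.07 and E2f8 by 0.50 ± 0.12 (adjusted p = 2.71e-06 and 0.00139). Mybl2 did not pass, at -0.33 ± 0.17.

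**Figure D3:**
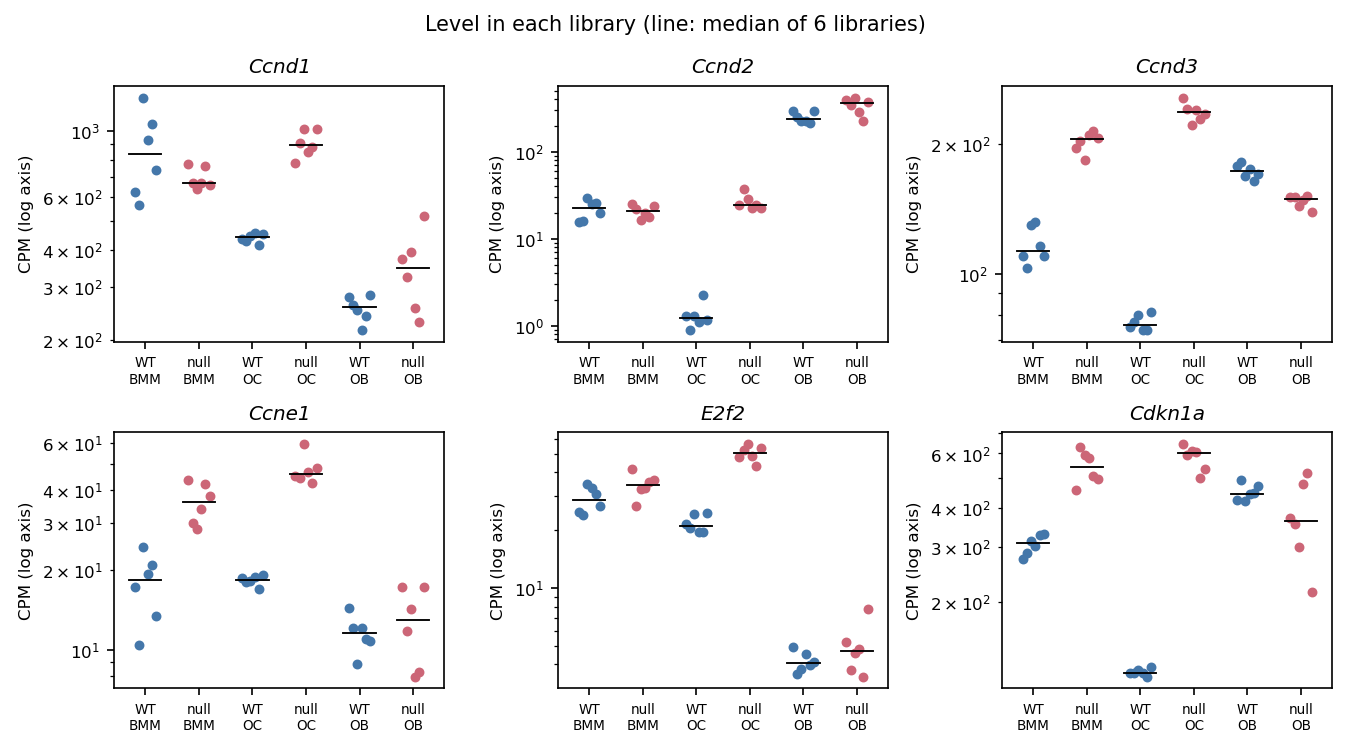
Level of 6 members in each library (CPM, log axis) by group, with the median of 6 libraries as a line. Ccnd2 falls to 0.890 to 2.25 CPM in WT OC only, and Cdkn1a to 115 to 124 CPM in the same group.

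The S phase class changed in both directions in the RANK-L cultures. Rrm2, the regulated subunit of ribonucleotide reductase, was at 180, 186 and 192 CPM in WT and 260, 320 and 380 CPM in null (0.79 ± 0.08, adjusted p = 1.19e-07). Cdc45, a helicase partner, was higher by 0.75 ± 0.16 and Pcna by 0.38 ± 0.07 (adjusted p = 6.84e-04 and 2.17e-04). Cdt1 was lower by 0.40 ± 0.12 (adjusted p = 0.0091).

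The 6 subunits of the MCM helicase, which act as 1 ring, did not move together. Mcm2, Mcm3 and Mcm5 were higher in null, by 0.43 ± 0.07, 0.38 ± 0.06 and 0.32 ± 0.08, while Mcm4, Mcm6 and Mcm7 were lower, by 0.20 ± 0.08, 0.31 ± 0.06 and 0.30 ± 0.06 (adjusted p = 3.70e-05, 1.40e-05, 0.00323, 0.0309, 2.11e-04 and 2.31e-04). Mcm6 was at 267 to 286 CPM in WT OC and 199 to 255 CPM in null, and Mcm5 at 95.9 to 103 against 109 to 158, with no overlap for either. The Mcm4 call was lost without WT OC replicate 1, 4 or 6 or null OC replicate 1, 4 or 5, and with a length and GC offset, and Mcm5 did not pass on TPM. Set against each other per length, the summed TPM of Mcm2, Mcm3 and Mcm5 over that of Mcm4, Mcm6 and Mcm7 was 0.709 to 0.804 in WT BMM, 0.89 to 1.02 in null BMM, 0.583 to 0.614 in WT OC and 0.88 to 1.06 in null RANK-L cultures. In osteoblasts it was 0.567 to 0.701 and 0.513 to 0.722. This grouping was chosen after its values were seen and is given without a test. In the promoter stretches printed above, Mcm5, Mcm6 and Mcm7 all carry E2F letters. Mcm2 had no E2F match, Mcm3 had matches only after the start of the gene, and Mcm4 had no sequence. The part of these letters in the changes was not tested.

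**Figure D4:**
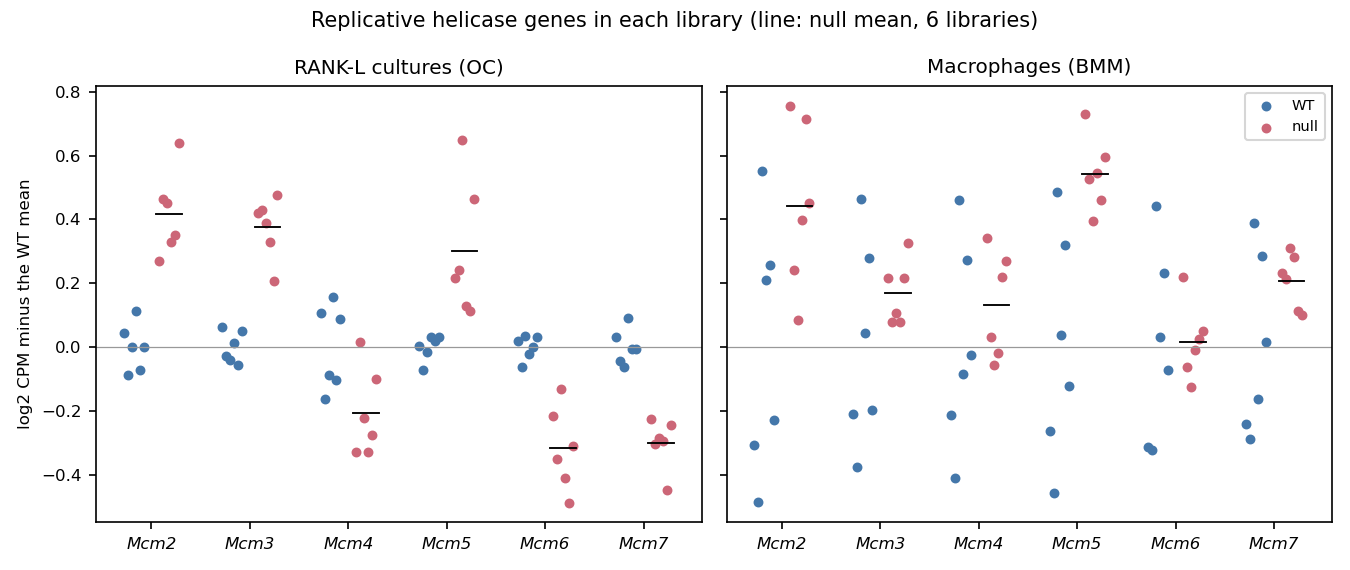
Log2 CPM of Mcm2 to Mcm7 in each library, relative to the WT mean of the same culture (vertical axis), in RANK-L cultures and in BMM, with the null mean as a line. In RANK-L cultures Mcm2, Mcm3 and Mcm5 lie above the WT libraries and Mcm6 and Mcm7 below them, and in BMM the WT libraries spread over the null ones.

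Mitotic genes in the RANK-L cultures also divided. The 4 higher in null were Cdk1 (0.40 ± 0.10, adjusted p = 0.00141), Mki67 (0.39 ± 0.07, adjusted p = 1.76e-04), Plk1 and Aurkb, the kinase of the chromosomal passenger complex; on TPM only Cdk1 of these passed. The 9 lower were led by Kif11, the motor that separates spindle poles (-0.55 ± 0.13, adjusted p = 0.00172), Bub1b (-0.53 ± 0.08, adjusted p = 1.81e-05) and Bub1 (-0.50 ± 0.10, adjusted p = 2.45e-04). Bub1b was at 58.1, 65.4 and 69.5 CPM in WT OC and 37.9, 44.5 and 51.8 CPM in null, with no overlap. Top2a was lower by 0.18 ± 0.07 (adjusted p = 0.0266), a call lost without WT OC replicate 1 or 6 or null OC replicate 1, 2, 4 or 5. Between the same cultures the summed markers of other cells were also higher in null with no overlap: neutrophil markers at 2.54 to 4.64 CPM in WT OC and 50.6 to 93.6 in null, osteoblast markers at 12.6 to 15.0 and 59.7 to 272, T and NK cell markers at 17.8 to 20.3 and 34.4 to 58.7, and 6 adipocyte markers at up to 2.72 and at a median of 13.4. Their part was not tested.

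In BMM, without RANK-L, null cells had more of both cyclin E messages, of Rrm2, Mki67 and Cdkn1a, and less Cdt1, than WT, while 26 of the 49 members did not pass the test. Of the 49 members 23 changed (46.9%), 21 higher and 2 lower, against 52.4% of all genes, 27.0% higher and 25.3% lower. Their median log2 fold change was 0.24, and that of all genes 0.02. Of 17 S phase genes 7 were higher and 1 lower, of 16 mitotic genes 9 were higher and none lower, and of the G1 genes 3 were higher. On TPM, where all genes shift by -0.12, the counts were 5 higher and 1 lower, 3 higher and 1 lower, and 3 higher and 2 lower for these classes. The mitotic class level on TPM had a median of 0.07 in null BMM and -0.03 in WT BMM, with overlapping ranges, so no direction of that class as a whole is given for BMM.

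Rrm2 was at 75.8, 110 and 154 CPM in WT BMM and 178, 218 and 291 CPM in null BMM, with no overlap (1.05 ± 0.17, adjusted p = 1.37e-04). Cdc45 was higher by 0.92 ± 0.13 and Mcm5 by 0.52 ± 0.13 (adjusted p = 1.74e-05 and 0.00422). Cdt1 was the S phase gene that was lower, at 31.4, 37.0 and 50.6 CPM in WT and 20.5, 23.1 and 27.9 in null (-0.71 ± 0.12, adjusted p = 1.20e-04). Pcna did not pass (0.15 ± 0.09, adjusted p = 0.199). Cdt1 was therefore lower in null in both marrow-derived cultures while its fellow licensing factor Cdc6 was higher (0.76 ± 0.20 in BMM and 0.45 ± 0.14 with RANK-L).

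Mki67 went from 54.6, 64.5 and 79.5 CPM in WT BMM to 84.2, 103 and 116 CPM in null, with no overlap (0.61 ± 0.10, adjusted p = 1.29e-04). Kif20a, a motor of cytokinesis, was higher by 0.44 ± 0.10, Cdk1 by 0.40 ± 0.09 and Top2a by 0.28 ± 0.10 (adjusted p = 0.00135, 0.00129 and 0.0272). Of the G1 genes Ccne1 went from 10.4, 18.3 and 24.4 CPM to 28.6, 35.9 and 43.6 CPM (1.04 ± 0.18, adjusted p = 1.83e-04), Ccne2 was higher by 0.89 ± 0.18 and Ccnd3 by 0.80 ± 0.07 (adjusted p = 8.38e-04 and 1.21e-07). Ccnd1 and Ccnd2 did not pass, at -0.31 ± 0.17 and -0.07 ± 0.16, and E2f8 was at 0.34 ± 0.16. Of the inhibitors Cdkn1a was higher, from 274, 309 and 330 CPM to 457, 545 and 631 CPM (0.84 ± 0.08, adjusted p = 3.21e-07). Cdkn1b was higher by 0.40 ± 0.14 and Cdkn2c lower by 0.40 ± 0.15 (adjusted p = 0.0271 and 0.0348). The call of Top2a was lost without WT BMM replicate 1, 2, 4 or 6 or null BMM replicate 2, that of Cdkn1b without WT BMM replicate 1 or 3 or null BMM replicate 3, and that of Cdkn2c without WT BMM replicate 1 or 2 or null BMM replicate 1 or 6. Markers of other cells moved with these genes, each sum higher in null BMM than in WT with no overlap: 10 neutrophil markers at 30.1 to 48.1 CPM in WT and 86.2 to 110 in null, 8 osteoblast markers at 10.1 to 28.1 and 57.1 to 133, 8 osteoclast markers at 87.9 to 125 and 238 to 310, 6 B cell markers at 2.06 to 3.27 and 4.43 to 6.77, and 8 macrophage markers at 38000 to 49200 and 49800 to 58100. A sum is set by its most abundant genes. Of the 8 macrophage markers 2 were higher and 5 lower in null BMM. Of 5 osteoclast markers tested 2 were higher and 2 lower. Sums of 6 T and NK cell markers and of 6 erythroid markers were lower in null, at 40.7 to 57.3 against 32.7 to 40.2 CPM and at 1.48 to 3.65 against 0.710 to 1.24 CPM. Only 1 gene of each of these 2 lists passed the filter on low counts. The neutrophil genes S100a9, Ltf, Ngp, Elane, Mpo and Ly6g, the osteoblast genes Bglap and Sp7 and the osteoclast gene Calcr had at most 3 counts in every library of both groups. The part of these cells in the results was not tested.

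In osteoblasts the genotypes differed little in these genes. Of the 49, 12 changed (24.5%), 4 higher and 8 lower in null, a share below that of all genes (32.5%, 15.5% higher and 16.9% lower). Among the members the log2 fold change followed transcript length, with a Spearman correlation of 0.74 across 49 genes (a description, since genes are not replicates). With an offset for length and GC content this was 0.06, and 5 members passed, while the calls over all 13614 genes fell from 4421 to 2019. On TPM, where all genes shift by 0.14, the S phase class had 5 higher and 0 lower members in place of 0 and 3, and the mitotic class 5 and 0 in place of 2 and 1, so no direction of these classes is given for osteoblasts.

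Cdk6, a G1 kinase, was the member with the largest change, at 20.0, 24.1 and 27.8 CPM in WT OB and 31.3, 36.3 and 41.3 CPM in null, with no overlap (0.58 ± 0.09, adjusted p = 1.91e-04). It passed under each of the 11 alternatives and without each of the 12 libraries in turn. Cdkn2c was lower by 0.45 ± 0.09 (adjusted p = 0.00171), and did not pass with the length and GC offset. Rrm2 was lower by 0.32 ± 0.06, Pcna by 0.31 ± 0.08, Cdk1 by 0.28 ± 0.07, E2f1 by 0.26 ± 0.07 and Ccnd3 by 0.24 ± 0.05 (adjusted p = 0.00121, 0.00621, 0.00512, 0.00699 and 0.00122); none of these 5 passed on TPM, and Pcna and Cdk1 did not pass with the length and GC offset. Bub1 and Cenpf were higher by 0.23 ± 0.08 and 0.36 ± 0.12, and Ccnd2 by 0.44 ± 0.14 (adjusted p = 0.0282, 0.038 and 0.0282). Cdk4 was at -0.14 ± 0.05 (adjusted p = 0.0393). Bub1, Cenpf, Ccnd2 and Cdk4 did not pass with the length and GC offset. Leaving out 1 library at a time, the calls of Gins2, Cenpf, Ccnd2, Cdk4 and Bub1 held in 2, 5, 5, 5 and 8 of 12 fits; all 5 were lost without WT OB replicate 2 and null OB replicate 3, and Gins2 when any single WT OB library was left out. Mki67, Top2a, Mcm5, Ccne1, Ccnd1, E2f8, Cdkn1a and Cdkn1b did not pass, at 0.39 ± 0.15, 0.14 ± 0.09, 0.09 ± 0.14, 0.14 ± 0.19, 0.44 ± 0.17, 0.15 ± 0.23, -0.27 ± 0.18 and -0.02 ± 0.15.

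**Figure D5:**
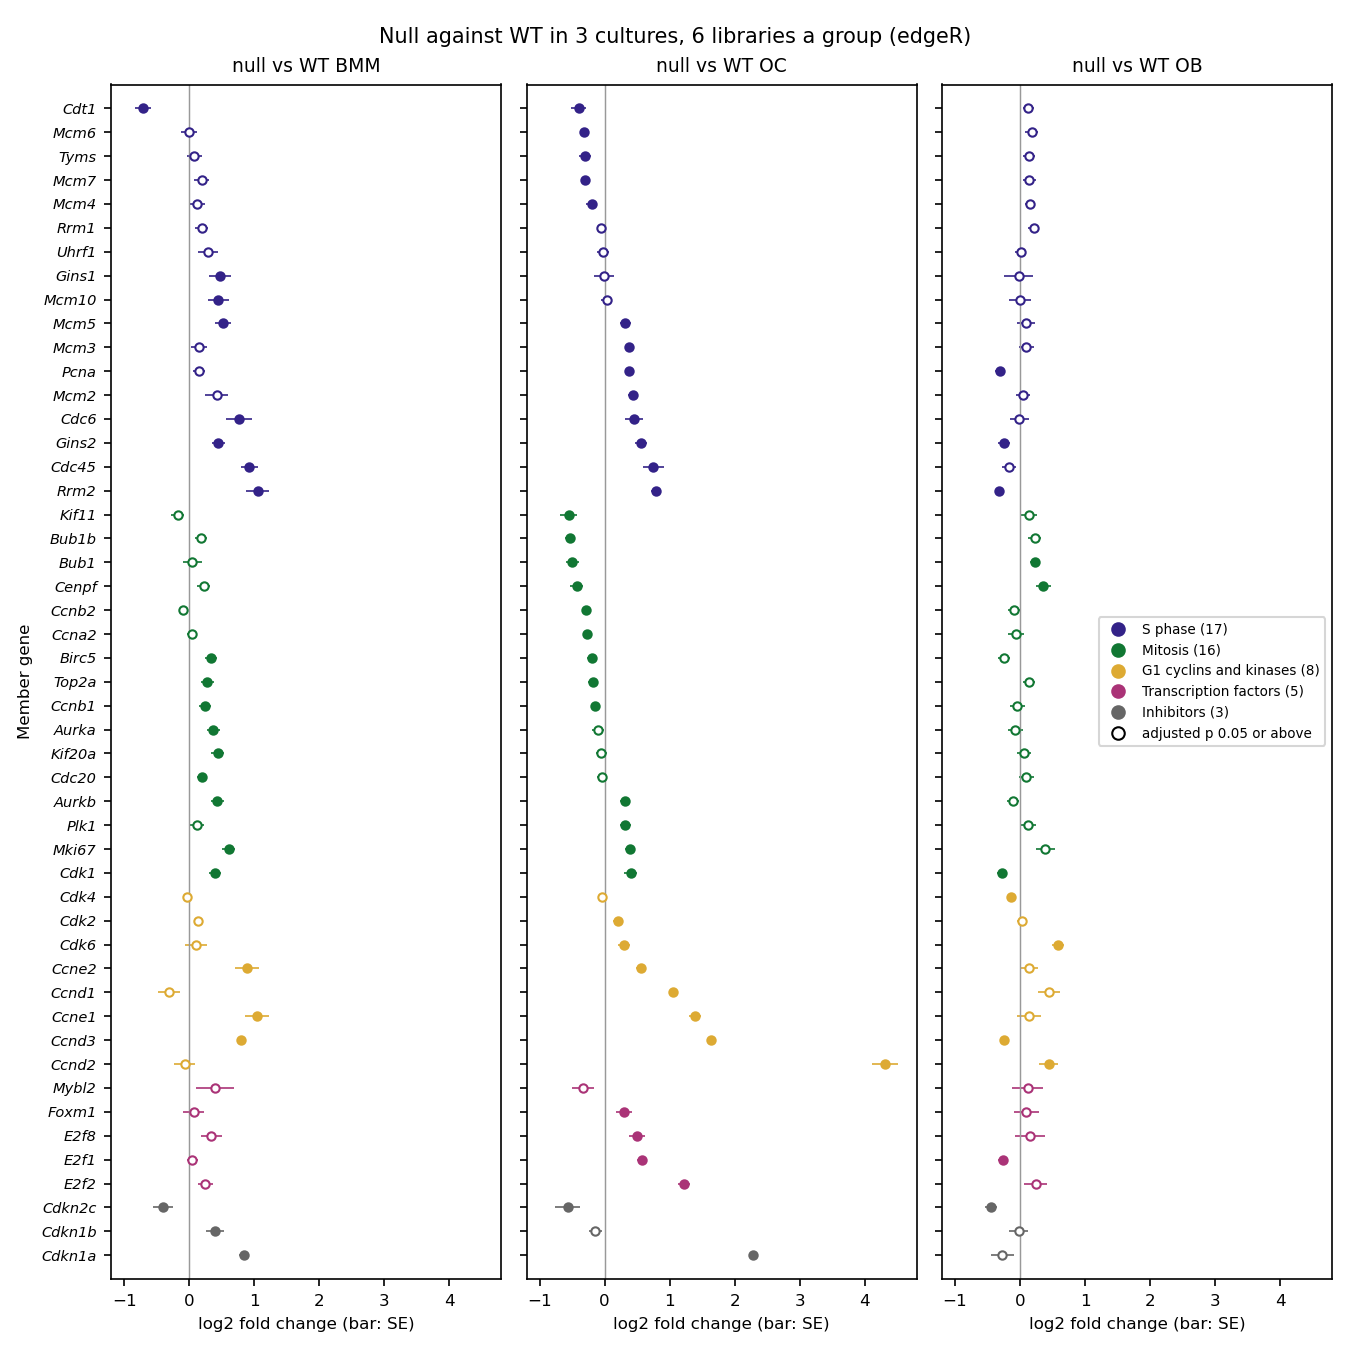
Log2 fold change of null against WT for each member (horizontal axis, SE bars) in BMM, OC and OB, coloured by class, with open points at an adjusted p of 0.05 or above. G1 cyclins and Cdkn1a are far to the right in OC, with Ccnd2 at 4.32, and most members lie near 0 in OB.

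Osteoblasts differed from the marrow-derived cultures in both arms of the cycle. Against WT BMM, WT OB had 45 changed members, 7 higher and 38 lower, with 81.6% of all genes changed, 44.2% higher and 37.4% lower. Against WT OC 48 changed, 7 higher and 41 lower, with 82.7% of all genes changed, 44.6% higher and 38.1% lower. Median log2 fold changes of the members were -0.86 and -1.39, and 0.08 over all genes in each. Mki67 was at 18.4, 23.1 and 28.6 CPM in WT OB, below the 54.6 to 79.5 CPM of WT BMM (-1.49, adjusted p = 3.20e-12). The G1 kinase Cdk6 was lower in OB than in BMM by 2.75 and the transcription factor E2f2 by 2.78, while the G1 genes Ccnd2 and Cdk4 were higher by 3.54 and 0.76 and the inhibitor Cdkn1b by 1.92 on the log2 scale (adjusted p = 2.87e-14, 6.95e-17, 9.60e-14, 1.07e-14 and 1.69e-12). Source, time in culture and cell type cannot be told apart in this comparison.

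Compared per length, the D-type cyclins had different makeups. Ccnd1 gave 78.5% to 86.8% of the summed D-cyclin TPM in WT BMM, 65.5% to 71.5% in null BMM, 78.9% to 81.5% in WT OC, 67.7% to 75% in null RANK-L cultures, 36.4% to 42.6% in WT OB and 41.1% to 58.4% in null OB. Ccnd2 gave 17.3% to 20.5% in WT OB and at most 1.02% and 0.203% in WT BMM and WT OC. Ccnd3 gave 12.3% to 20.6% in WT BMM and 27.4% to 33.5% in null BMM, with no overlap. These shares were not tested.

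Whether the genotype effect itself differed between osteoblasts and the marrow-derived cultures was tested over all 36 libraries. Against OC it differed for 24 of 49 members (55.3% of all genes) and against BMM for 18 (45.8%). The effect on Ccnd2 was lower in OB than in OC by 3.87, on Cdkn1a by 2.55, on Ccnd3 by 1.86 and on Rrm2 by 1.09 on the log2 scale (adjusted p = 7.44e-15, 1.58e-15, 7.01e-22 and 8.22e-07). Bub1, Bub1b and Kif11 were among the members with a higher effect in OB (Bub1 by 0.75, adjusted p = 2.40e-04). Against BMM, Rrm2 differed by -1.35 and Cdc45 by -1.08, and Cdt1 by 0.86 (adjusted p = 3.20e-08, 2.12e-05 and 8.68e-05).

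The rest of the pathway was read from 70 other genes in 3 lists. Of 22 other replication genes, 16 rose and none fell in WT RANK-L culture (72.7%, against 60.5% of all genes changed, 30.4% upward and 30.1% downward). In null RANK-L culture 3 rose and none fell (13.6%, against 12.9% of all genes, 6.77% upward and 6.08% downward). In null BMM 12 were higher and 1 lower than in WT (59.1%, against 52.4%, 27.0% higher and 25.3% lower). In null RANK-L cultures 6 were higher and 6 lower than in WT OC (54.5%, against 65.5%). Of 29 other mitotic genes, in the same comparisons, 18 rose and 2 fell (69.0%), 9 rose and none fell (9 of 29, a share above the 12.9%), 12 were higher and 5 lower (58.6%), and 8 were higher and 7 lower (51.7%). In osteoblasts 2 genes of each of these lists differed between genotypes (9.09% and 6.90%, against 32.5% of all genes). Counted in both directions together, the shares of replication genes in null RANK-L culture and of both lists in null BMM were near those of all genes. Those between the RANK-L cultures and in osteoblasts were below them. By direction, changes were mostly upward in both lists in null BMM. The 3 replication genes that changed in null RANK-L culture all rose, but they are too few to give a direction of that list. All genes split almost evenly in these comparisons. Lig1, the replicative ligase, was higher in null BMM by 0.73 ± 0.13, and Fen1, the flap nuclease, in null RANK-L cultures by 0.47 ± 0.08 (adjusted p = 2.64e-04 and 5.69e-05). Espl1 (separase) and Kif23, a motor of cytokinesis, were lower in null in both, by 0.82 ± 0.12 and 0.67 ± 0.09 in BMM and by 1.35 ± 0.11 and 0.80 ± 0.08 with RANK-L (adjusted p = 3.81e-05, 1.28e-05, 1.26e-08 and 9.91e-08). Pola1, a polymerase α subunit, was lower in both, by 0.40 ± 0.15 and 0.59 ± 0.10 (adjusted p = 0.0337 and 4.31e-05).

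The third list holds 19 genes that restrain or control entry into the cycle. In null BMM 9 were higher and 5 lower of 18 tested (77.8%, against 52.4% of all genes). In null RANK-L cultures 11 were higher and 2 lower than in WT OC (68.4%, near the 65.5% of all genes), and in null OB 2 were higher and 3 lower (26.3%, below the 32.5% of all genes). The largest rises in null BMM at a mean of at least 1 CPM were those of Btg2 and Mdm2, known p53 targets like Cdkn1a. They were higher by 1.11 ± 0.15 and 0.98 ± 0.08 (adjusted p = 1.27e-05 and 5.34e-08). The activity of p53 was not tested. Btg2 was also higher in null RANK-L cultures, by 1.92 ± 0.09 (adjusted p = 8.16e-12). Rb1, the retinoblastoma gene, was higher there by 1.11 ± 0.17 and fell in WT RANK-L culture by 1.20 ± 0.14 (adjusted p = 1.94e-05 and 2.11e-08). Myc, a driver of G1, was lower in null BMM by 1.59 ± 0.12 and in null RANK-L cultures by 1.01 ± 0.10 (adjusted p = 3.11e-08 and 1.22e-07), and Cdkn2b (p15) by 1.29 ± 0.17 and 1.39 ± 0.11 (adjusted p = 8.55e-06 and 8.29e-09). In osteoblasts Cdkn1c (p57) was lower by 0.95 ± 0.23 (adjusted p = 0.006).

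For 9 members over 20% of the 31-base words of their transcripts also occur in another gene's transcripts, and their levels are uncertain: Gins2 (66.2%, antisense to Gse1), Mcm7 (33.4%), Ccnb1 (27.8%), Kif20a and Cdc20 (26.7% each), Uhrf1 (24.2%), Pcna (23.3%), Ccnd1 (22.3%, antisense to LTO1) and Mybl2 (21.1%). Without them, a choice made after seeing the data, 19, 34 and 10 of 40 members differed between the genotypes in BMM, OC and OB.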

How the data were processed

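The authors deposited, per the file headers, a table per library that gives each transcript its length and effective length, its estimated count and its TPM. Per the submitters' processing notes the tools were kallisto and DESeq2 and the build GRCh38, while the identifiers are those of mouse. Of 88198 transcripts 97.6% matched GENCODE M21 (GRCm38). Unmatched ones held 0.606% to 0.96% of a library's counts and were left out. The deposited effective lengths entered the offset for effective length. The deposited lengths entered the offset for length and GC content, with and without the replicate block, and the correlation with transcript length.

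Estimated counts were summed by gene (30284 genes) and rounded. After filterByExpr and TMM scaling, the robust quasi-likelihood F test of edgeR 4.0.16 (R 4.3.3, limma 3.58.1) was used. Adjustment was by Benjamini-Hochberg across every gene tested in a comparison, and 0.05 was the threshold. SE is the log2 fold change over the root of F. Genotype comparisons used the 12 libraries of a culture, RANK-L comparisons and their interaction 24, WT cultures 18 and differences in the genotype effect all 36. CPM is TMM-scaled. Class levels use log2(CPM + 0.5), and the deposited TPM values were tested as log2(TPM + 1), a scale that understates changes of low genes. Null against WT BMM, the interaction and the genotype effect in OB minus BMM were also run on simulated data, with edgeR, DESeq2 and limma-voom. The other comparisons were not.

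The members and lists were chosen with earlier results of these data known. Named throughout were Mki67, Top2a, Pcna, Mcm5, Cdk1, Ccne1, Ccnd1, Ccnd2, Ccnd3, E2f8, Cdkn1a, Cdkn1b and Cdkn2c, and in each comparison up to 2 members per class and direction with the largest change among those past the threshold at a mean of at least 1 CPM, with up to 2 genes per other list likewise. Any further gene named was chosen after its values were seen. Tried as alternatives were DESeq2 1.42.0, limma-voom weighted by library quality, limma-trend on TPM, RLE scaling, dropping the filter, a minimum mean of 10 counts, the replicate block, offsets for effective length and for length with GC content (lowess span 0.3), that offset with the block, a fit of all 36 libraries and leaving out each library. The closest pair of replicates differed by a chi-square of 3.39 per gene, above sampling noise, so all 36 counted. Count intervals would cover counting error only. Mir324 itself was not analysed here.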

Additional observations from a re-analysis of the deposited data

Results flagged for a closer look

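In 4 of 108 groups of 6 libraries tested, 1 library lay far from the other 5, and chance alone flags about 1 in 20. The S phase class of null RANK-L culture replicate 5 was at 0.41, below the rest of its group. The inhibitor class of WT OC replicate 4 was at -0.1, below the rest. Ccne1 was at 59.4 CPM in null RANK-L culture replicate 3 and Ccnd2 at 2.25 CPM in WT OC replicate 5, each above the rest of its group.

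The difference of 2 effects was tested for the 13 members named throughout, and 20 differences passed the threshold of 0.05 on the adjusted p. Of all genes, 51.4% passed for the response to RANK-L culture, 55.3% for OB minus OC and 45.8% for OB minus BMM. The count is therefore not particular to these members. The response to RANK-L culture differed between null and WT by -0.45 for Top2a, 1.37 for Ccnd1, 4.40 for Ccnd2, 0.84 for Ccnd3, 1.46 for Cdkn1a and -0.54 for Cdkn1b on the log2 scale. The genotype effect in OB minus that in OC was 0.33 for Top2a, -0.67 for Pcna, -0.67 for Cdk1, -1.23 for Ccne1, -0.59 for Ccnd1, -3.87 for Ccnd2, -1.86 for Ccnd3 and -2.55 for Cdkn1a. The genotype effect in OB minus that in BMM was -0.44 for Pcna, -0.67 for Cdk1, -0.89 for Ccne1, 0.77 for Ccnd1, -1.03 for Ccnd3 and -1.10 for Cdkn1a.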

How the results depend on the processing

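The 145 results named were recomputed under each alternative. Apart from leaving out a library, 1416 values kept their side of the threshold, 94 lost and 28 gained the threshold and 1 reversed. Without each library 1616 kept their side, 107 lost and 17 gained the threshold. A reversal was counted only where the result passed the threshold in the main or the alternative fit. Changes of sign in results that passed in neither are among the 1416 and 1616. The value that reversed was Cdk4 in null against WT OB, 0.07 on TPM against -0.14. Members called in null against WT OB were 12, and 5 once length and GC were offset, and without each library 7 (WT OB replicate 2 left out) to 14. Members called in null RANK-L culture against null BMM were 24, and 14 with limma-voom, and 13 to 30 without each library. The other counts without each library were 16 to 27 (null against WT BMM), 34 to 41 (OC), 37 to 40 (WT OC against WT BMM), 17 to 28 (interaction), 21 to 26 and 14 to 20 (effect in OB minus OC and minus BMM), 45 to 46 and 48 (WT OB against BMM and OC). TPM moved the median of all genes by 0.30 and 0.24 for the effect in OB minus OC and minus BMM. Causes were not tested.

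The sources used here do not say whether equal replicate numbers mark libraries of the same mouse. Same-numbered libraries correlated at -0.22 to 0.14, a range that includes pairs of WT and null libraries, which cannot share a mouse. For WT BMM with WT OC the values were -0.05 to 0.09, and for null BMM with null RANK-L cultures -0.21 to 0.04. Low correlations cannot exclude a shared mouse, so no conclusion on pairing is drawn. With the number as a block the counts in null RANK-L culture against null BMM fell to 15, and to 12 with the length and GC offset as well, and in null against WT OB to 4 with both. The block gave 18, 36 and 11 members in BMM, OC and OB, 37 in WT RANK-L culture and 18 for the interaction. In the comparisons of null with WT in a culture, it joined WT and null libraries of equal number. Those cannot share a mouse, so the block does not examine shared mice there. Depth limits genes at few counts a library, such as Ccnd2 in WT OC (18 to 44 counts).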
